A study of Homo sapiens with 28 samples.

Results

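Combined knockdown of the coactivators p300 and CBP was examined in LNCaP cells without the hairpin against HOXB13. LNCaP cells derive from a lymph node metastasis of prostate cancer and respond to androgen. The comparison was chosen by treatment label and took 4 of the 28 RNA-seq libraries, 2 of shCtrl+shp300/CBP cells and 2 of shCtrl cells, with every gene in the expression tables. All of these cells carried a control construct (shCtrl), grew in RPMI with serum and are given a wild-type genotype in the labels. The shCtrl+shp300/CBP cells also carried a hairpin against EP300, the gene of p300, and one against CREBBP, the gene of CBP.

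The other groups used here were shCtrl+shp300 and shCtrl+shCBP cells, and shHOXB13+shp300/CBP, shHOXB13+shp300, shHOXB13+shCBP and shHOXB13 cells (2 libraries each). Also used were shCtrl cells given the p300/CBP bromodomain inhibitor CCS1477 at 250 nM for 48 hours or DMSO (3 libraries each). Each target had 1 hairpin sequence, so an off-target effect of a hairpin cannot be told apart from the loss of its target. The control construct and the HOXB13 hairpin were in the vector pGIPZ and the p300 and CBP hairpins in pLKO.1. The sources used here do not say that shCtrl cells received a matched empty pLKO.1 vector, so the number of hairpin vectors went with the group and the vectors' share of the changes cannot be told apart.

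p300 and CBP are paralogous lysine acetyltransferases that transcription factors recruit to enhancers and promoters. They acetylate histone H3 and many other proteins, and their bromodomains bind acetylated lysines. In prostate luminal cells they are coactivators of the androgen receptor, and in most cell types they also serve interferon regulatory factors, E2F, MYC, CREB and hypoxia-inducible factors.

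Poly(A) RNA abundance was given as FPKM, read fragments scaled to transcript length and to library depth. Depth was inferred from the FPKM values of short RNA genes of known length. It came to 12744547 and 16338528 mapped reads in shCtrl+shp300/CBP, against 13808003 and 13614998 in shCtrl. With gene lengths inferred from the values too, 70.6% and 68.0% of those reads fell in listed genes in shCtrl+shp300/CBP. In shCtrl 74.3% and 72.2% did. Log2 values of the 2 libraries of a knockdown group correlated at 0.951 to 0.979 across genes. The lowest value was that of shHOXB13+shp300/CBP, whose replicate 1 stood apart: its hypoxia-response genes summed to 5835 FPKM, against 905 to 1841 FPKM in the other 15 knockdown libraries, and its reference genes to 8114 FPKM, against 2992 to 4599 FPKM. Luminal markers were detected in all 4 libraries. None of the 14 was at 0, although 7 were lower and 1 higher with shp300/CBP by limma at an adjusted p under 0.05 (9.40% and 8.90% of all genes), and their summed level was 2350 and 2138 FPKM in shCtrl+shp300/CBP, against 2555 and 2714 FPKM in shCtrl. The basal markers KRT5 and TP63 and the leukocyte marker PTPRC were at 0 in all 4 libraries. Summed basal markers were 12.5 and 12.8 FPKM in shCtrl+shp300/CBP, against 18.5 and 16.2 FPKM in shCtrl, and summed immune markers were 5.35 and 5.41 FPKM with shp300/CBP, against 5.06 and 6.69 FPKM in shCtrl.

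Interferon-stimulated genes rose and cell-cycle genes fell with the hairpins, and promoters of 5 of their members are shown because the results turn on these groups. They are the 250 bases before the RefSeq transcription start in GRCh38.p14, given 5′ to 3′ on the gene's own strand. Capitals mark GAAANNGAA, the core of an interferon-stimulated response element, in the first 3, and CCAAT or TTTGAA (a cell-cycle homology region core) in the last 2, found on either strand. IFIT1 lies at chr10:89392373-89392622 on the plus strand, IFI6 at chr1:27672193-27672442 on the minus strand, RSAD2 at chr2:6865635-6865884 on the plus strand, TOP2A at chr17:40417897-40418146 on the minus strand and CDK1 at chr10:60778081-60778330 on the plus strand.
IFIT1: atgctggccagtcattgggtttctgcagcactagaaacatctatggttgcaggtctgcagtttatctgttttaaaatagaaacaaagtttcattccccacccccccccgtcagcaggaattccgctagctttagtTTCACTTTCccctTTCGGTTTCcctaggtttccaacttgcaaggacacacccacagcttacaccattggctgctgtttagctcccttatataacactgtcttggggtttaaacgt
IFI6: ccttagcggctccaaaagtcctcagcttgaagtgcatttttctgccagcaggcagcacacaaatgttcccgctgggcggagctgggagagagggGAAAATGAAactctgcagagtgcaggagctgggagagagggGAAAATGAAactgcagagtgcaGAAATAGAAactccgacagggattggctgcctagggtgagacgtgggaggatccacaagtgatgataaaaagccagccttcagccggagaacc
RSAD2: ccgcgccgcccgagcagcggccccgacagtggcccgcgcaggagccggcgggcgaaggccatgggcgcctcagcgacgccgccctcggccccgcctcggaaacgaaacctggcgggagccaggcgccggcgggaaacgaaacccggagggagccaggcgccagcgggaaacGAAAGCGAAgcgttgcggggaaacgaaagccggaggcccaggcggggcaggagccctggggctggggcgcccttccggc
TOP2A: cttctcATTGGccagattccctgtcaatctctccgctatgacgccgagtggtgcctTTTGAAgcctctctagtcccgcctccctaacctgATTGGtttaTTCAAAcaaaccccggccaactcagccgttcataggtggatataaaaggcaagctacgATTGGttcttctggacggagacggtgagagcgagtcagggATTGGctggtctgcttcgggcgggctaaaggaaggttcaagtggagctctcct
CDK1: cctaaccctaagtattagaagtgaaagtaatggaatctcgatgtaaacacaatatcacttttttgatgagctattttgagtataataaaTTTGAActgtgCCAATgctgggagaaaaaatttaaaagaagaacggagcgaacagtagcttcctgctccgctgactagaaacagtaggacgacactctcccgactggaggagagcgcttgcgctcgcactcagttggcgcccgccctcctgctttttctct

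The window of IFIT1 held 2 copies of GAAANNGAA, that of IFI6 held 3 and that of RSAD2 held 1, and 7.06% of all 27305 promoters in the table held a copy. TOP2A had 4 copies of CCAAT and 2 of TTTGAA, and CDK1 had 1 of each. Across the mitosis list, 31 of 37 genes matched a promoter, of which 23 (74.2%) held CCAAT and 16 (51.6%) held TTTGAA, against 33.0% and 13.6% of all promoters. Of 34 matched promoters among 40 DNA replication genes, 21 (61.8%) held CCAAT and 1 (2.94%) held TTTGAA. No counted copy of the CCAAT motif overlaps a copy of the other. Shares for the interferon list and for all raised or lowered genes are not given, since fewer than 80% of their members matched. A match describes the letters of the window only.

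The targeted genes were checked first. EP300 (chr22:41092592-41180077 in GRCh38.p14) was at 5.0 and 6.78 FPKM in shCtrl+shp300/CBP, against 11.5 and 10.5 FPKM in shCtrl. Both libraries with the hairpins were below both controls, a log2 change of -0.90 ± 0.15 (SE; limma, adjusted p = 0.0023), or 0.534-fold on the log2(FPKM + 0.1) scale that is used for every fold here. With the spread taken from these 4 libraries alone, its adjusted p was 0.0749. CREBBP (chr16:3725054-3880713) was at 4.0 and 4.72 FPKM in shCtrl+shp300/CBP, against 6.44 and 5.96 FPKM in shCtrl (log2 change -0.50 ± 0.16, limma adjusted p = 0.044), a 0.706-fold level. The CREBBP call was lost whenever any 1 of the 4 libraries was left out (adjusted p 0.0824 to 0.258) and with the replicate number as a block (adjusted p = 0.0599).

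CREBBP RNA was not lower with both hairpins than with shCBP alone. CREBBP stood at 3.36 and 2.96 FPKM in shCtrl+shCBP, and at 8.63 and 8.92 FPKM in shCtrl+shp300, where the p300 hairpin was alone. Against shCtrl+shCBP the combined knockdown was 0.45 higher on the log2 scale (limma adjusted p = 0.11). EP300 stood at 4.34 and 4.87 FPKM in shCtrl+shp300 and at 11 and 10.7 FPKM in shCtrl+shCBP. HOXB13, a prostate homeobox factor that no hairpin in these cells targets, was at 53.7 and 45.0 FPKM in shCtrl+shp300/CBP, against 87.6 and 85.4 FPKM in shCtrl (log2 change -0.81 ± 0.17, limma adjusted p = 0.0064). It was also at 43.2 and 51.5 FPKM in shCtrl+shCBP, and at 69.7 and 77.1 FPKM in shCtrl+shp300. Without shCtrl+shp300/CBP replicate 2 the HOXB13 fall no longer passed (adjusted p = 0.0732).

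**Figure D1:**
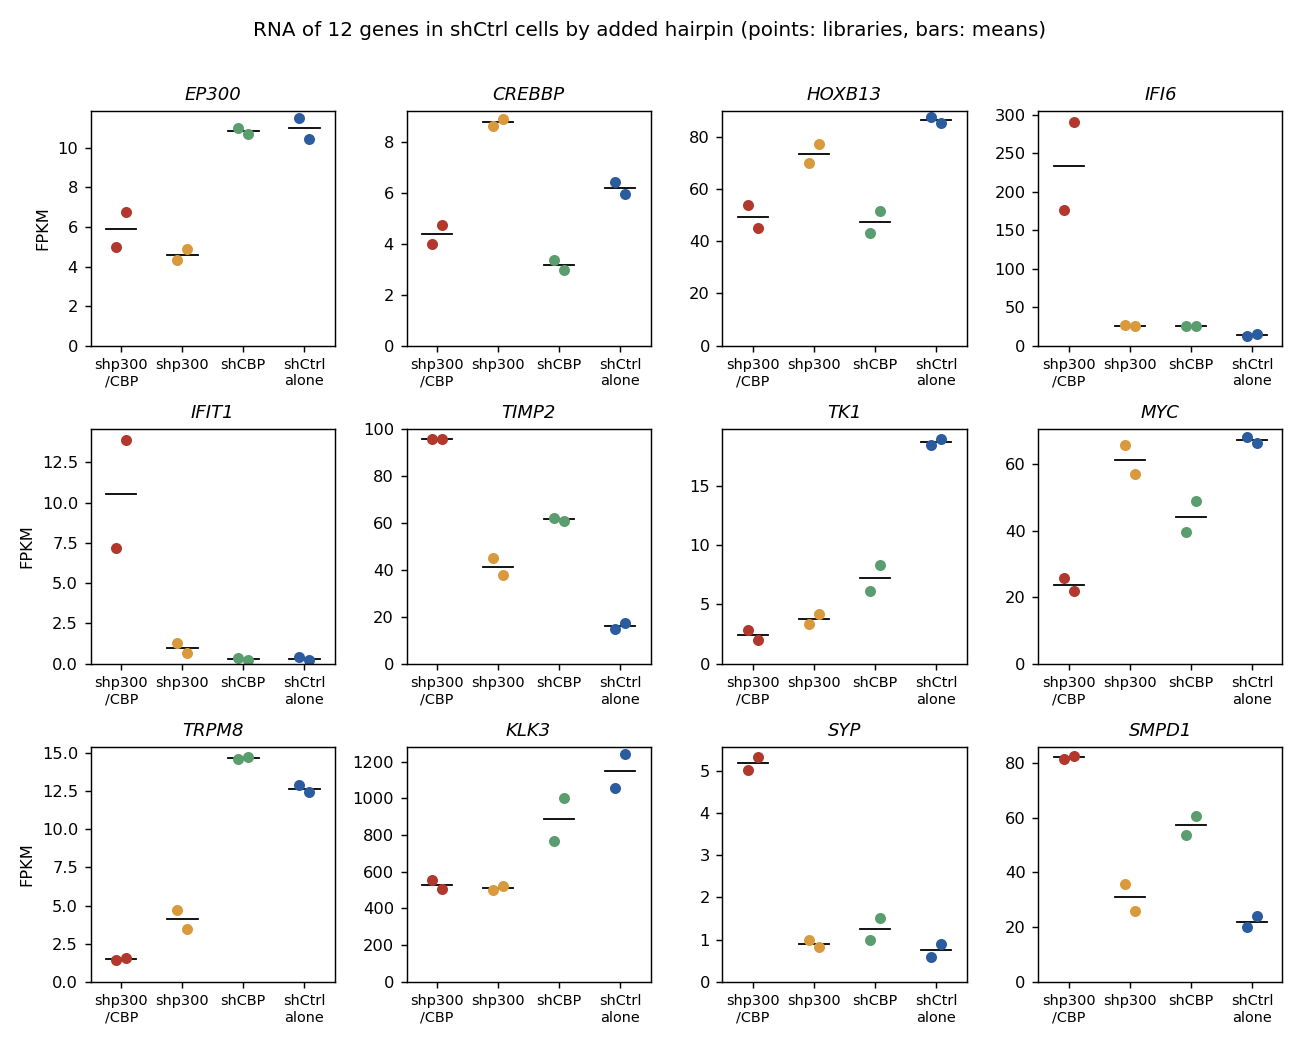
FPKM (vertical axes, linear from 0) of 12 genes in the 4 groups of shCtrl cells, with 2 libraries (points) and their mean (bar) in each. IFI6 and IFIT1 were far higher with both hairpins than with either alone or in shCtrl, while TK1 was low in all 3 hairpin groups.

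The RNA of many genes differed between the groups, in both directions. With limma at an adjusted p under 0.05 and at least 1.5-fold, 1343 genes (7.60% of 17678 tested) were higher and 1394 (7.89%) were lower in shCtrl+shp300/CBP than in shCtrl. At least 4-fold changes were reached by 114 of the higher and 141 of the lower genes, and the median log2 change of the called genes was 1.02 among those higher and -0.94 among those lower. The lower genes were the more abundant: their median level was 15.4 FPKM in the separate shCtrl DMSO libraries, against 3.33 FPKM for the higher genes and 4.33 FPKM for all genes tested. Leaving out any 1 of the 4 libraries reduced the calls by more than 1.5 times. The counts were 755 higher and 909 lower without shCtrl+shp300/CBP replicate 1, 635 and 606 without its replicate 2, 752 and 734 without shCtrl replicate 1, and 848 and 911 without its replicate 2.

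**Figure D2:**
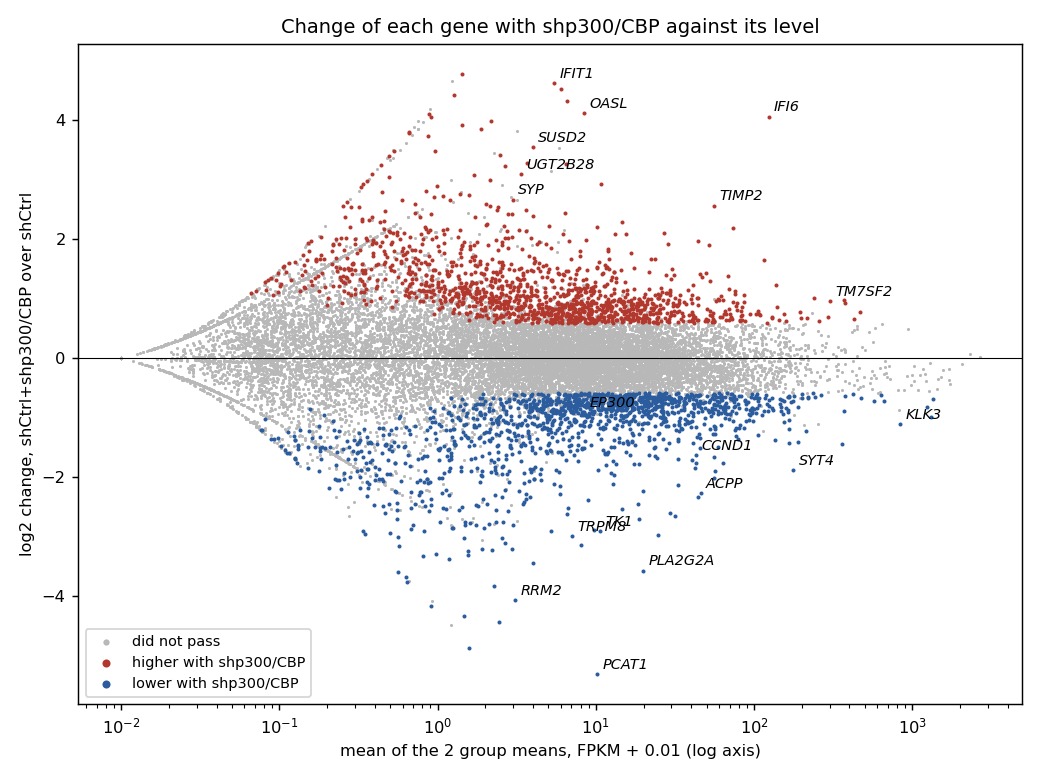
Log2 change of each of 17678 genes (vertical axis) against the mean of the group means in FPKM (horizontal log axis), with genes called higher in red and lower in blue. The highest changes among named genes were interferon-stimulated (IFIT1, 4.62), and PCAT1 had the lowest at -5.30.

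Interferon-stimulated genes rose. Of 42 tested, 28 were higher and 0 lower at an adjusted p under 0.05, with a median log2 change of 1.05, against 8.90% of all genes higher and 9.40% lower and a median of 0 by the same rule. These shares hold for every list counted between shCtrl+shp300/CBP and shCtrl. These genes are induced when interferons bind their receptors, and many act against viral RNA. IFIT1, which binds foreign RNA caps, was at 7.15 and 13.9 FPKM in shCtrl+shp300/CBP, against 0.383 and 0.249 FPKM in shCtrl (24.6-fold, limma adjusted p = 2.6e-05). RSAD2, the antiviral enzyme viperin, was at 7.73 and 15.4 FPKM with shp300/CBP, against 0.454 and 0.314 FPKM in shCtrl (23.0-fold, limma adjusted p = 7.9e-05). IFI6, a mitochondrial and endoplasmic reticulum protein, was the most abundant of the 3, at 176 and 291 FPKM in shCtrl+shp300/CBP, against 12 and 15.3 FPKM in shCtrl (16.6-fold, limma adjusted p = 9.3e-06). In each of these 3 genes the libraries of the groups did not overlap, as was so for 31.5% of all genes upward and 30.8% downward, and replicate 2 of shCtrl+shp300/CBP was the higher.

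Other members followed in the same libraries. OASL, a relative of the oligoadenylate synthetases, was at 9.90 and 22.2 FPKM in shCtrl+shp300/CBP, against 0.660 and 0.881 FPKM in shCtrl. The chemokine CXCL10 was at 2.45 and 5.94 FPKM with shp300/CBP, against 0.119 and 0.181 FPKM in shCtrl, a 15.8-fold difference (limma adjusted p = 0.00022). Also higher were IFIT3 (9.73-fold), IFITM1 (10.6-fold), IRF9 (log2 change 2.20), ISG15 (1.64) and BST2 (1.40). IFIT1 and IFIT3 belong to a family with similar sequences, and how reads shared among its members were counted is not stated in detail.

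RNA and DNA sensors, which can start an interferon response, also moved. Which of these genes changed first was not tested. Of 18 RNA and DNA sensors and their factors tested, 7 were higher and 0 lower. With each library left out in turn (shCtrl+shp300/CBP replicates 1 and 2, then shCtrl replicates 1 and 2, the order used for such counts from here on) 5, 2, 4 and 3 were higher. DDX58, which encodes the viral RNA sensor RIG-I, was at 4.47 and 6.33 FPKM in shCtrl+shp300/CBP, against 1.49 and 1.37 FPKM in shCtrl (log2 change 1.82 ± 0.20, limma adjusted p = 0.00015). EIF2AK2, the double-stranded RNA kinase PKR, was at 6.84 and 8.21 FPKM with shp300/CBP, against 4.30 and 3.65 FPKM in shCtrl (log2 change 0.90, limma adjusted p = 0.0046), a call lost without shCtrl+shp300/CBP replicate 2 (adjusted p = 0.0588). The interferon gene IFNL1 was at 0.458 and 0.572 FPKM in shCtrl+shp300/CBP and was listed at 0 in both shCtrl libraries, in both shCtrl+shp300 libraries and in both shCtrl+shCBP libraries. The chemokine CCL5 was at 0.778 and 2.92 FPKM in shCtrl+shp300/CBP, against 0 and 0.112 FPKM in shCtrl.

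Replicate 2 of shCtrl+shp300/CBP weighed most on these calls, as it did on the calls over all genes. Without shCtrl+shp300/CBP replicate 2, 16 of the 42 interferon-stimulated genes were still higher, against 20 to 25 when another library was left out. With a spread estimated from the 4 libraries alone, 7 of them passed. Of 23 NF-kB factors and targets, 1 passed, and it was lower: NFKB1 was at 4.61 and 4.84 FPKM in shCtrl+shp300/CBP, against 9.11 and 8.04 FPKM in shCtrl. Among 23 class I antigen presentation genes, 2 were higher and 2 lower. HLA-E, a nonclassical class I molecule whose reads can be split with other HLA genes, was at 5.17 and 4.99 FPKM with shp300/CBP, against 2.36 and 2.75 FPKM in shCtrl (limma adjusted p = 0.0024).

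Cell-cycle genes fell. Fewer cycling cells and less RNA per cell cannot be told apart in bulk RNA. Of 37 genes for mitosis and the spindle, 32 fell and 0 rose (median log2 change -1.70), and of 40 genes for DNA replication and S phase, 25 fell and 0 rose (median -1.02). MYBL2, a transcription factor of the DREAM and B-MYB cell-cycle complexes, was at 0.735 and 0.463 FPKM in shCtrl+shp300/CBP, against 7.56 and 7.17 FPKM in shCtrl (log2 change -3.44 ± 0.33, limma adjusted p = 7.9e-05). TOP2A, the topoisomerase that separates replicated chromosomes, was at 0.491 and 0.319 FPKM with shp300/CBP, against 3.49 and 3.5 FPKM in shCtrl (log2 change -2.85 ± 0.34, limma adjusted p = 0.00027). CDK1, the mitotic kinase, was at 1.70 and 2.29 FPKM with shp300/CBP, against 9.56 and 8.17 FPKM in shCtrl (log2 change -2.11 ± 0.25, limma adjusted p = 0.00027). All 3 had libraries that did not overlap between the groups.

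Further cell-cycle genes had large falls. RRM2, the small subunit of ribonucleotide reductase, was at 0.388 and 0.160 FPKM in shCtrl+shp300/CBP, against 5.55 and 6.2 FPKM in shCtrl (log2 change -4.06 ± 0.40, limma adjusted p = 8.2e-05). TK1, thymidine kinase, was at 2.85 and 2.03 FPKM with shp300/CBP, against 18.4 and 18.9 FPKM in shCtrl (log2 change -2.90 ± 0.22, limma adjusted p = 2.3e-05). CDC6, which loads the replicative helicase, was at 0.694 and 0.281 FPKM with shp300/CBP, against 3.94 and 3.49 FPKM in shCtrl. CDC45, DTL, NDC80 and ZNF367 had log2 changes of -3.23, -2.86, -2.55 and -3.38. UBE2C, a ubiquitin-conjugating enzyme of the anaphase-promoting complex, was at 0.873 and 0.243 FPKM with shp300/CBP, against 4.66 and 5.89 FPKM in shCtrl. Its call (limma adjusted p = 0.014) was lost without shCtrl+shp300/CBP replicate 2, without shCtrl replicate 1 and without shCtrl replicate 2 (adjusted p 0.0641 to 0.140).

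The counts of lower cell-cycle genes depended on single libraries. With each library left out in turn, 27, 10, 17 and 20 of the 37 mitosis genes and 16, 12, 14 and 17 of the 40 replication genes were lower. The shCtrl cells of the knockdown experiment were themselves low in RRM2 beside the shCtrl DMSO libraries of the CCS1477 experiment, in which it was at 51.7, 51.2 and 49.4 FPKM. The source of that gap was not tested.

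Regulators of the G1 phase did not move one way. CCND1, cyclin D1, was at 19.6 and 22.1 FPKM in shCtrl+shp300/CBP, against 70.6 and 59.1 FPKM in shCtrl (log2 change -1.63 ± 0.18, limma adjusted p = 0.00018). CDKN1A, the p53-induced inhibitor p21, was lower too, at 96.3 and 112 FPKM with shp300/CBP, against 207 and 191 FPKM in shCtrl (log2 change -0.94, limma adjusted p = 0.0055), a call lost without shCtrl+shp300/CBP replicate 1 (adjusted p = 0.0564). CDKN2A, which encodes the inhibitors p16 and p14ARF, was higher at 13.5 and 11.5 FPKM with shp300/CBP, against 6.8 and 6.04 FPKM in shCtrl (log2 change 0.95, limma adjusted p = 0.0040). Of 27 p53 targets, 2 were higher and 7 lower, the 7 becoming 1, 1, 2 and 4 with each library left out.

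MYC and the machinery of ribosome production were lower. MYC was at 25.8 and 21.7 FPKM in shCtrl+shp300/CBP, against 68.2 and 66.3 FPKM in shCtrl (log2 change -1.5 ± 0.21, limma adjusted p = 0.00073). Of 37 ribosome biogenesis genes, 16 fell and 0 rose (median log2 change -0.55), and leaving out each library in turn gave 8, 5, 5 and 10. The nucleolar helicase DDX21 was at 26.9 and 26.4 FPKM with shp300/CBP, against 66.2 and 53 FPKM in shCtrl. FBL, the ribosomal RNA methyltransferase fibrillarin, was at 50.4 and 40.3 FPKM with shp300/CBP, against 78.8 and 84.1 FPKM in shCtrl. SRM and AMD1, enzymes of polyamine synthesis, had log2 changes of -1.20 and -0.91 (limma adjusted p = 0.0015 and 0.0026).

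Smaller falls were seen in other growth and metabolic lists. Among 75 cytosolic ribosomal protein genes, 13 were lower and 0 higher, against 28 lower with median-of-ratios scaling and 7, 1, 3 and 1 with each library left out. These genes have many processed copies, so their values are uncertain. RPL23A had the lowest log2 change of those that passed, -1.18. Of 25 genes of the NRF2 antioxidant programme, 8 were lower and 0 higher (6, 4, 6 and 7 lower with each library left out), among them the quinone reductase NQO1, at 27.2 and 22.7 FPKM in shCtrl+shp300/CBP, against 64.5 and 60.3 FPKM in shCtrl (log2 change -1.33 ± 0.17, limma adjusted p = 0.00039). Glutathione reductase, GSR, was at 27.5 and 21.5 FPKM with shp300/CBP, against 52.2 and 49.6 FPKM in shCtrl.

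**Figure D3:**
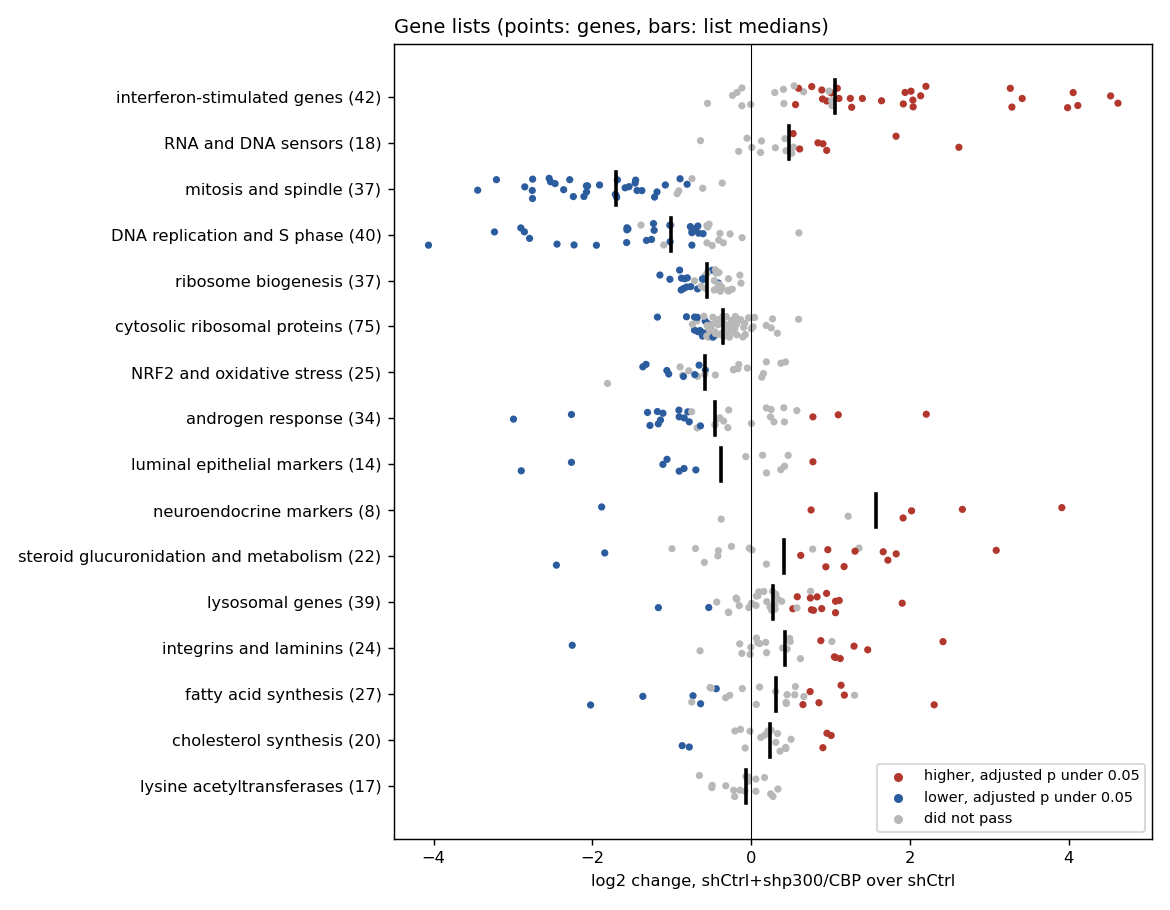
Log2 change of each tested member (points) of 16 gene lists, with the list median as a bar and the number tested in brackets. Red and blue mark members higher and lower at an adjusted p under 0.05. The mitosis list lay to the left of 0 throughout (median -1.70), interferon-stimulated genes mostly to the right (median 1.05), and no acetyltransferase passed.

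Part of the androgen response fell. Of 34 androgen-responsive genes, 14 fell and 3 rose (median log2 change -0.46). TRPM8, a cold-gated calcium channel, was at 1.44 and 1.57 FPKM in shCtrl+shp300/CBP, against 12.9 and 12.4 FPKM in shCtrl (log2 change -2.99 ± 0.19, limma adjusted p = 9.7e-06). ACPP, prostatic acid phosphatase, was at 16.5 and 15.1 FPKM with shp300/CBP, against 76.5 and 75.6 FPKM in shCtrl (log2 change -2.26 ± 0.24, limma adjusted p = 0.00015). KLK3, which encodes prostate-specific antigen, was at 555 and 505 FPKM with shp300/CBP, against 1054 and 1243 FPKM in shCtrl (log2 change -1.11 ± 0.21, limma adjusted p = 0.0044). The groups' libraries did not overlap in any of the 3.

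The exceptions were TMPRSS2, EAF2 and STEAP4. STEAP4, a metalloreductase, was at 1.42 and 1.41 FPKM in shCtrl+shp300/CBP, against 0.269 and 0.193 FPKM in shCtrl (4.61-fold, limma adjusted p = 0.00032). Its relative STEAP1, a prostate cell-surface protein, was lower at 112 and 93.1 FPKM with shp300/CBP, against 232 and 232 FPKM in shCtrl (log2 change -1.18 ± 0.17, limma adjusted p = 0.00072). Of 18 prostate cell-surface targets, 7 were lower and 0 higher, with 5, 5, 4 and 5 lower when each library was left out. ALDH1A3, a retinaldehyde dehydrogenase, was at 16.2 and 18.4 FPKM with shp300/CBP, against 40.2 and 36.5 FPKM in shCtrl.

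Some luminal factors and markers were lower as well. Of 18 factors that act with the androgen receptor or in luminal cells, 5 were lower and 1 higher: GATA2 (log2 change -0.76), HOXB13 (-0.81), ETV1 (-1.09), CREB3L4 (-1.08) and ELF3 (-1.45) were lower and KLF5 (1.02) was higher. ETV1, an ETS factor that LNCaP overexpresses through a rearrangement, was at 14.2 and 13.0 FPKM in shCtrl+shp300/CBP, against 31.4 and 26.6 FPKM in shCtrl. Of 14 luminal markers, 7 were lower and 1 higher. KRT18, a luminal keratin, was at 67.1 and 60.4 FPKM with shp300/CBP, against 143 and 124 FPKM in shCtrl (log2 change -1.06 ± 0.17, limma adjusted p = 0.0014). AGR2, a secretory protein disulfide isomerase, was at 9.26 and 10.6 FPKM with shp300/CBP, against 17.8 and 18 FPKM in shCtrl (log2 change -0.85, limma adjusted p = 0.0063), and did not pass without shCtrl+shp300/CBP replicate 1 (adjusted p = 0.0575).

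Several transcripts with the largest falls were prostate-restricted or secreted. PCAT1, a prostate cancer long noncoding RNA, had the largest, at 0.355 and 0.461 FPKM in shCtrl+shp300/CBP, against 22.6 and 17.4 FPKM in shCtrl (log2 change -5.30 ± 0.23, limma adjusted p = 4e-07). PLA2G2A, a secreted phospholipase, was at 3.27 and 2.73 FPKM with shp300/CBP, against 33.4 and 39.9 FPKM in shCtrl (log2 change -3.57 ± 0.25, limma adjusted p = 1.8e-05). OR51E2, the prostate-specific olfactory receptor, was at 1.83 and 1.32 FPKM with shp300/CBP, against 13.6 and 15.4 FPKM in shCtrl (log2 change -3.14 ± 0.38, limma adjusted p = 0.00034). The calcium-binding protein S100P was at 7.38 and 9.72 FPKM with shp300/CBP, against 49.3 and 59.2 FPKM in shCtrl. KRT20, an intestinal and umbrella-cell keratin, was listed at 0 in both shCtrl+shp300/CBP libraries, against 1.62 and 0.855 FPKM in shCtrl. IL1RN, the interleukin 1 receptor antagonist, GRIN3A, a glutamate receptor subunit, and PPP1R14C, a phosphatase inhibitor, had log2 changes of -4.34, -3.23 and -3.30.

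Markers of the neuroendocrine lineage were split. Of 19 listed, 8 passed the filter on level and were tested. Of 8 tested, 5 were higher (SYP, SCG2, SCG3, ONECUT2 and RET; 4, 3, 3 and 3 with each library left out) and 1 was lower (SYT4), while the lineage factors NEUROD1, FOXA2 and SOX2 were at 0 in all 4 libraries. SYP, the synaptic vesicle protein synaptophysin, was at 5.03 and 5.33 FPKM in shCtrl+shp300/CBP, against 0.595 and 0.906 FPKM in shCtrl (6.31-fold, limma adjusted p = 0.00011). SCG3, a secretory granule protein, was at 3.03 and 2.42 FPKM with shp300/CBP, against 0.0656 and 0.111 FPKM in shCtrl (15-fold, limma adjusted p = 0.00016). SYT4, a synaptotagmin and the most abundant of the list, was at 79.5 and 70.9 FPKM with shp300/CBP, against 286 and 270 FPKM in shCtrl, so the summed list was lower at 102 and 93.7 FPKM in shCtrl+shp300/CBP, against 293 and 276 FPKM in shCtrl. RET, a receptor tyrosine kinase, was at 0.711 and 0.507 FPKM with shp300/CBP, against 0.0906 and 0.0574 FPKM in shCtrl. In shCtrl, SCG3 and RET were near the 0.1 FPKM of the filter, so such genes could enter the count through the group where they were high. With 1 FPKM required in at least 2 libraries, 3 of the neuroendocrine markers were higher and 1 lower.

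Several genes of the extracellular matrix and adhesion were higher. Of 19 matrix metalloproteinases and inhibitors, 4 were higher and 1 lower, against 3 and 3 with the spread from the 4 libraries alone. TIMP2, an inhibitor of metalloproteinases, was at 95.6 and 96.0 FPKM in shCtrl+shp300/CBP, against 15 and 17.5 FPKM in shCtrl (5.89-fold, limma adjusted p = 4e-07). MMP10, the metalloproteinase stromelysin 2, was at 5.04 and 4.63 FPKM with shp300/CBP, against 0.329 and 0.543 FPKM in shCtrl (9.38-fold, limma adjusted p = 4.5e-05). MMP7, the metalloproteinase matrilysin, was lower at 0.0701 and 0.0547 FPKM with shp300/CBP, against 1.42 and 1.64 FPKM in shCtrl (log2 change -3.33, limma adjusted p = 0.012), a call lost without any 1 of the 4 libraries (adjusted p 0.0572 to 0.0754). Of 24 integrins and laminins, 7 were higher and 1 lower. LAMB2, a laminin chain, was at 83.0 and 82.6 FPKM with shp300/CBP, against 38.6 and 41.5 FPKM in shCtrl, and ITGA3, its integrin receptor subunit, at 7.55 and 7.59 FPKM with shp300/CBP, against 2.84 and 3.23 FPKM in shCtrl. LAMB3, a chain of a basal-layer laminin, fell to 0.105 and 0.136 FPKM with shp300/CBP, against 0.918 and 0.980 FPKM in shCtrl, and fibronectin, FN1, to 26 and 25.5 FPKM with shp300/CBP, against 69.7 and 61.1 FPKM in shCtrl.

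Of 21 regulators of epithelial-mesenchymal transition and cadherins, 1 was higher and 2 lower, near the shares of all genes (8.90% and 9.40%). Median-of-ratios scaling gave 1 and 4, and voom on recovered reads gave 2 and 5. LUM, the matrix proteoglycan lumican, was at 1.85 and 1.53 FPKM in shCtrl+shp300/CBP, against 0.0342 and 0.0347 FPKM in shCtrl. Of 16 fibroblast and stromal markers, 10 were tested and LUM alone passed, while COL1A2, FAP and POSTN were at 0 in all 4 libraries. SUSD2, a membrane protein with sushi domains, was at 7.74 and 7.10 FPKM with shp300/CBP, against 0.455 and 0.646 FPKM in shCtrl (11.7-fold, limma adjusted p = 4.9e-05). SCRG1 was at 10.2 and 14.9 FPKM with shp300/CBP, against 0.481 and 0.569 FPKM in shCtrl (19.9-fold, limma adjusted p = 0.00039).

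Some UGT2B enzymes, which inactivate androgens by glucuronidation, were higher. Of 22 genes of steroid glucuronidation and metabolism, 9 were higher and 2 lower, the 9 becoming 4, 7, 5 and 6 with each library left out and 5 with the spread from the 4 libraries alone. UGT2B28 was at 5.86 and 6.28 FPKM in shCtrl+shp300/CBP, against 0.514 and 0.761 FPKM in shCtrl (8.48-fold, limma adjusted p = 2e-05). UGT2B11 was at 15.9 and 21.4 FPKM with shp300/CBP, against 5.13 and 5.16 FPKM in shCtrl, and UGT2B17 at 11 and 9.65 FPKM with shp300/CBP, against 4.63 and 4.44 FPKM in shCtrl. The 2 lower genes were of the UGT1A locus: UGT1A1 was at 0.166 and 0.130 FPKM with shp300/CBP, against 1.44 and 1.09 FPKM in shCtrl (log2 change -2.45 ± 0.31, limma adjusted p = 0.00043). UGT2B genes are near-identical and UGT1A genes share exons, so reads could be split among relatives and the single values are uncertain.

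Lipid genes did not move as one group. In fatty acid synthesis 6 of 27 genes were higher and 5 lower, beside 8.90% and 9.40% of all genes (3, 3, 2 and 4 higher and 3, 2, 2 and 3 lower with each library left out). Voom on recovered reads gave 11 and 7, and the spread from the 4 libraries alone 4 and 2. ELOVL6, which elongates palmitate, was at 13.1 and 12.6 FPKM in shCtrl+shp300/CBP, against 6.26 and 5.09 FPKM in shCtrl (2.25-fold, limma adjusted p = 0.00070). ME1, malic enzyme, a source of NADPH, was at 18.5 and 18.1 FPKM with shp300/CBP, against 53.9 and 41.6 FPKM in shCtrl (log2 change -1.37, limma adjusted p = 0.0015), and fatty acid synthase, FASN, had a log2 change of -0.44. Among acyl-CoA synthetases, which activate fatty acids, 4 of 16 were higher and 2 lower. ACSL6 was at 4.88 and 4.59 FPKM with shp300/CBP, against 0.670 and 0.967 FPKM in shCtrl (5.33-fold, limma adjusted p = 7.2e-05), and the abundant ACSL3 was at 105 and 92.8 FPKM with shp300/CBP, against 55.8 and 52.0 FPKM in shCtrl.

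In sterol metabolism, 3 of 20 cholesterol synthesis genes were higher and 2 lower, near the shares of all genes (8.90% and 9.40%). MSMO1, a sterol demethylase, was at 64.6 and 53.9 FPKM in shCtrl+shp300/CBP, against 28.4 and 30.2 FPKM in shCtrl (2.01-fold, limma adjusted p = 0.0018). TM7SF2, a sterol reductase, was at 405 and 388 FPKM with shp300/CBP, against 180 and 233 FPKM in shCtrl, and its call (limma adjusted p = 0.0065) was lost without shCtrl replicate 1 (adjusted p = 0.0704). Of 17 SREBP factors and sterol-sensing genes, 5 were lower and 0 higher (3, 2, 3 and 2 lower with each library left out). NR1H2, the oxysterol receptor LXR-beta, was at 15.7 and 14 FPKM with shp300/CBP, against 37.0 and 39.1 FPKM in shCtrl, and its target ABCG1, a cholesterol exporter, at 1.04 and 0.934 FPKM with shp300/CBP, against 4.08 and 4.14 FPKM in shCtrl. Of 28 fatty acid oxidation genes, 2 were higher and 4 lower, near the shares of all genes. CPT1C and ACOX3 had log2 changes of 1.19 and 0.92, and HADH and AMACR, of mitochondrial and branched-chain oxidation, had -1.36 and -2.02. Of 24 triglyceride and lipid droplet genes, LPIN3 and PNPLA2 were higher (0.80 and 0.62) and MGLL, monoglyceride lipase, was lower (-1.45).

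Lysosomal enzymes leaned upward, with 12 of 39 genes higher and 2 lower. SMPD1, acid sphingomyelinase, was at 81.5 and 82.7 FPKM in shCtrl+shp300/CBP, against 20.1 and 23.9 FPKM in shCtrl (3.73-fold, limma adjusted p = 0.00014). GLB1, lysosomal beta-galactosidase, was at 57.4 and 52.7 FPKM with shp300/CBP, against 25.9 and 26.7 FPKM in shCtrl, and CTSB, cathepsin B, at 117 and 112 FPKM with shp300/CBP, against 54.2 and 64.4 FPKM in shCtrl. With each library left out, 5, 7, 5 and 10 lysosomal genes were higher. In sphingolipid metabolism 7 of 29 genes were higher and 2 lower, and 3, 3, 3 and 5 were higher with each library left out. DEGS2, which makes phytoceramides, was at 7.99 and 5.92 FPKM with shp300/CBP, against 1.70 and 1.73 FPKM in shCtrl, whereas SGPL1, which breaks down sphingosine phosphate, was at 8.41 and 6.83 FPKM with shp300/CBP, against 19.1 and 21.3 FPKM in shCtrl.

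Signalling genes changed in mixed directions. The inhibitors of differentiation ID2 and ID3, targets of BMP signalling, were lower: ID3 was at 1.90 and 2.03 FPKM in shCtrl+shp300/CBP, against 10.1 and 9.84 FPKM in shCtrl (log2 change -2.28 ± 0.30, limma adjusted p = 0.00054). TGFBR2, the TGF-beta receptor, was higher at 1.5 and 1.51 FPKM with shp300/CBP, against 0.262 and 0.265 FPKM in shCtrl (4.42-fold, limma adjusted p = 0.00058), as was the matrix protein LTBP2 (3.53-fold). The Notch targets NRARP and HES1 had log2 changes of -1.73 and -1.57, while the receptor NOTCH3 was at 15.7 and 14.6 FPKM with shp300/CBP, against 7.93 and 8.31 FPKM in shCtrl. Of 30 nuclear receptors 2 were higher and 8 lower (6, 4, 4 and 6 lower with each library left out).

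Chromatin regulators were counted in several lists. Of 18 deacetylase and NCoR/SMRT genes, 2 were higher and 3 lower, and of 16 core histone genes 1 was higher and 3 lower, beside 8.90% and 9.40% of all genes. Of 17 tested lysine acetyltransferases other than the targets, 0 passed in limma, where 0 were higher and 2 lower at an unadjusted p under 0.05. With voom on recovered reads, 2 were lower. HAT1, at 21.8 and 18.5 FPKM in shCtrl+shp300/CBP, against 35.9 and 27.9 FPKM in shCtrl, had an adjusted p of 0.10 and passed with median-of-ratios scaling and with voom on recovered reads (adjusted p 0.0394 and 0.0178). Of 12 BET and other acetyl-lysine readers, 1 was higher and 1 lower, near the shares of all genes. The higher one was HEXIM1, an inhibitor of the elongation factor P-TEFb and a known marker of response to BET bromodomain inhibitors. HEXIM1 was at 22 and 22.4 FPKM with shp300/CBP, against 12.5 and 10.1 FPKM in shCtrl (1.96-fold, limma adjusted p = 0.0016). The deacetylase HDAC10 was at 35.7 and 40.3 FPKM with shp300/CBP, against 16.5 and 18.9 FPKM in shCtrl. TBL1XR1, a subunit of the NCoR corepressor, was at 32.9 and 31.6 FPKM with shp300/CBP, against 55.9 and 52.5 FPKM in shCtrl.

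Counts in the hypoxia and CREB programmes, which are long tied to p300 and CBP, depended on the setting. Of 28 hypoxia-response genes 1 was higher and 0 lower (8.90% and 9.40% of all genes). The counts were 2 and 2 with median-of-ratios scaling, 4 and 4 with the spread from the 4 libraries alone, and 1 and 3 with voom on recovered reads. The shared spread of the first count took in shHOXB13+shp300/CBP replicate 1, where these genes summed to 5835 FPKM. More of them passed in both directions when either library of that group was left out. Of 21 CREB and cAMP targets, 0 passed in limma in either direction, with 2 higher and 5 lower at an unadjusted p under 0.05. With voom on recovered reads, 4 of them were lower, and with median-of-ratios scaling 2 were lower. A gene that misses the threshold is not shown to be unchanged with 2 libraries a group.

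To ask what each hairpin added, the combined knockdown was set directly against the single ones. The contrasts share the shCtrl+shp300/CBP libraries, so their values are given side by side only. Over shCtrl+shp300, 536 genes (3.03%) were higher and 441 (2.49%) lower with limma. Over shCtrl+shCBP, 661 (3.74%) were higher and 402 (2.27%) lower, a split that turned to 387 higher and 607 lower with median-of-ratios scaling, under which the median log2 difference of all genes was 0, against 0.12 without it. With a spread from the 4 libraries of each contrast alone, limma called 0 genes in either. At an unadjusted p under 0.05 that estimate gave 2608 higher and 2171 lower over shCtrl+shp300 and 3039 and 1420 over shCtrl+shCBP, and voom with all groups called 792 and 701 over shCtrl+shp300 and 1178 and 588 over shCtrl+shCBP. Every left-out library cut these counts by more than 1.5 times, over shCtrl+shp300 to 87 higher and 88 lower without shCtrl+shp300/CBP replicate 2, and over shCtrl+shCBP to 113 and 118 without its replicate 1.

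In shCtrl cells, interferon-stimulated genes were higher with both hairpins than with either one. IFI6 was at 176 and 291 FPKM with both hairpins, 27.0 and 25 FPKM in shCtrl+shp300 and 25.2 and 25.1 FPKM in shCtrl+shCBP. Of the 42 interferon-stimulated genes, 27 were higher and 0 lower over shCtrl+shp300 (3.50% and 2.81% of all genes by the same rule), and 27 were higher and 1 lower over shCtrl+shCBP (4.28% and 2.39%). The cell-cycle genes were low with either hairpin. Of 37 mitosis genes, 22 were lower in shCtrl+shp300 than in shCtrl (2.19% of all genes) and 25 in shCtrl+shCBP (8.09%), with medians of -1.80 and -1.47. Over shCtrl+shp300, 0 of them were lower in limma (2 at an unadjusted p under 0.05, and 1 with voom on recovered reads), and over shCtrl+shCBP 1 was lower (4 unadjusted, and 3 with voom).

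For single genes the hairpins differed. S100P was at 8.71 and 8.54 FPKM in shCtrl+shp300, near the combined knockdown, and at 61.4 and 52.6 FPKM in shCtrl+shCBP, near the control. OR51E2 showed the other order, at 13.4 and 13.7 FPKM in shCtrl+shp300 and 2.12 and 3.65 FPKM in shCtrl+shCBP. The combined knockdown differed from shCtrl+shCBP for S100P (log2 difference -2.73, limma adjusted p = 7.5e-05) and from shCtrl+shp300 for OR51E2 (log2 difference -3.04, limma adjusted p = 0.0014). AGR2 was at 107 and 107 FPKM in shCtrl+shCBP, against 11.3 and 8.46 FPKM in shCtrl+shp300. PCAT1 was lowest with both hairpins, since it was at 4.14 and 5.47 FPKM in shCtrl+shp300 and at 2.6 and 2.93 FPKM in shCtrl+shCBP (limma adjusted p of the combined knockdown against them 5.8e-05 and 0.00019). MYC, at 65.8 and 56.8 FPKM in shCtrl+shp300 and 39.4 and 48.8 FPKM in shCtrl+shCBP, was lower with both hairpins than with either (adjusted p = 0.0043 and 0.030).

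**Figure D4:**
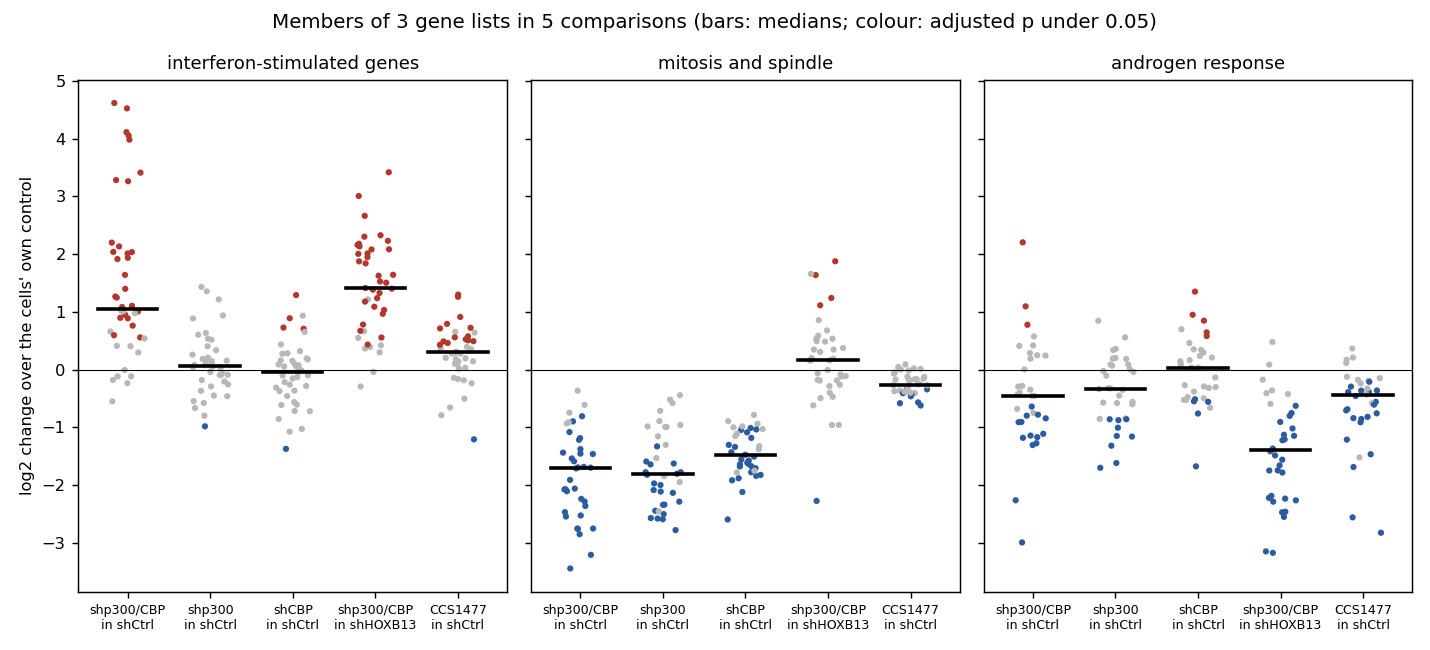
Log2 change (vertical axis) of members of 3 lists (points) in 5 comparisons, each against the cells' own control, with the median as a bar and adjusted p under 0.05 in colour. The first 3 comparisons share the shCtrl libraries. Interferon-stimulated genes had medians of 1.05 with both hairpins, 0.06 with shp300 and -0.04 with shCBP, and mitosis genes a median of 0.16 with both hairpins in shHOXB13 cells.

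The same hairpins were also compared in shHOXB13 cells, to ask where the response depended on HOXB13. An interaction term in limma gave 988 genes (5.59%) with a more positive and 448 (2.53%) with a more negative change in shCtrl than in shHOXB13 cells. The second count was 1231 without shHOXB13+shp300/CBP replicate 2 and 149 to 273 without any other single library, and the first was 345 to 504 without any 1 of the shCtrl+shp300/CBP, shCtrl or shHOXB13 libraries. Of the 1343 genes higher in shCtrl cells, 464 (34.5%) were also among the 1601 higher in shHOXB13 cells, which is 29.0% of those and sets against 9.06% of all genes. Of the 1394 lower genes, 618 (44.3%) were among the 2352 lower in shHOXB13 cells (26.3% of those), against 13.3% of all genes. Without shHOXB13+shp300/CBP replicate 1, the library that stood apart, 905 genes were higher in shHOXB13 cells and 332 of those were shared, which is 24.7% of the genes higher in shCtrl cells, and 599 of 2334 lower genes were shared.

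Cell-cycle genes were already low in shHOXB13 cells. RRM2 was at 0.0993 and 0.107 FPKM in shHOXB13+shp300/CBP, against 0.163 and 0.0918 FPKM in shHOXB13, where shCtrl cells had 5.55 and 6.2 FPKM. Of the 37 mitosis genes, 19 had a more negative change in shCtrl cells (2.54% of all genes by the same rule) and 0 a more positive one. Interferon-stimulated genes were higher in both backgrounds, with 33 of 42 higher in shHOXB13+shp300/CBP than in shHOXB13 (10.4% of all genes by the same rule). Their summed level was 1554 and 1449 FPKM in shHOXB13+shp300/CBP and 676 and 578 FPKM in shHOXB13. With single hairpins it was 2402 and 2148 FPKM in shHOXB13+shp300 and 760 and 960 FPKM in shHOXB13+shCBP. In this background the sum was thus highest with shp300 alone, unlike in shCtrl cells. The androgen response differed the other way, with 16 of 34 genes more positive in shCtrl cells and 1 more negative (5.59% and 2.54% of all genes), and 27 lower in shHOXB13+shp300/CBP than in shHOXB13 (16.2% of all genes). KLK3 was at 759 and 709 FPKM in shHOXB13+shp300/CBP, against 3480.4 and 3363 FPKM in shHOXB13. STEAP4 was opposite in direction, at 1.17 and 2.14 FPKM in shHOXB13+shp300/CBP, against 14.8 and 15 FPKM in shHOXB13 (limma adjusted p of the interaction 0.00015). Without shHOXB13+shp300/CBP replicate 1, 11 of 37 mitosis genes had a more negative change in shCtrl cells, 26 of 42 interferon-stimulated genes were higher in shHOXB13+shp300/CBP than in shHOXB13, and 15 of 34 androgen-responsive genes were more positive in shCtrl cells.

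The bromodomain inhibitor CCS1477 gave a comparison with libraries of its own. In shCtrl cells it raised 1047 genes (6.58%) and lowered 884 (5.56%) in limma, against 790 and 1044 with median-of-ratios scaling. Of 1308 genes higher with shp300/CBP and tested in both experiments, 403 (30.8%) were among the 1040 higher with CCS1477, which is 38.8% of those, against 6.60% of all genes. Of 1377 lower genes, 279 (20.3%) were among the 877 lower with CCS1477 (31.8% of those), against 5.57% of all genes. Opposite directions were seen in 24 genes higher with the hairpins and 8 lower with them.

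Several prostate transcripts were lower with both perturbations. TRPM8 was at 1.78, 2.51 and 2.42 FPKM with CCS1477, against 12.3, 14.9 and 13.5 FPKM with DMSO. OR51E2 was at 0.0906, 0.131 and 0.372 FPKM with CCS1477, against 4.57, 5.19 and 4.09 FPKM with DMSO, and PCAT1 at 2.11, 1.78 and 2.16 FPKM with CCS1477, against 18.7, 14.7 and 15.7 FPKM with DMSO. Of 34 androgen-responsive genes 21 were lower and 0 higher with CCS1477 (9.91% and 15.4% of all genes by the same rule). HEXIM1 was higher with both perturbations, at 33.7, 28.3 and 26.4 FPKM with CCS1477, against 13.2, 11.6 and 12.7 FPKM with DMSO.

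The cell-cycle and interferon lists were counted with CCS1477 as well. RRM2 was at 48.4, 54.2 and 42.9 FPKM with CCS1477, against 51.7, 51.2 and 49.4 FPKM with DMSO, a log2 change of -0.07 (limma adjusted p = 0.68). Of 37 mitosis genes, 8 were lower and 0 higher with CCS1477 (9.91% and 15.4% of all genes), with a median of -0.26. Voom on recovered reads gave 13 lower and the spread from the 6 libraries alone 4. IFIT1 was at 0.480, 1.12 and 0.893 FPKM with CCS1477, against 0.523, 0.467 and 0.425 FPKM with DMSO (adjusted p = 0.069), and 14 of 40 interferon-stimulated genes tested there were higher and 1 lower, against 7 and 1 with the spread from the 6 libraries alone. MMP10 moved opposite ways, at 0.0957, 0.207 and 0.136 FPKM with CCS1477, against 0.914, 1.32 and 0.951 FPKM with DMSO. The experiments differ in agent and in the cell-cycle level of their controls. Mitosis genes summed to 140 and 140 FPKM in shCtrl, against 920, 974 and 939 FPKM in shCtrl DMSO. DNA replication genes summed to 309 and 291 FPKM in shCtrl, against 794, 844 and 809 FPKM in shCtrl DMSO. The difference between the effects of the 2 experiments was not tested.

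**Figure D5:**
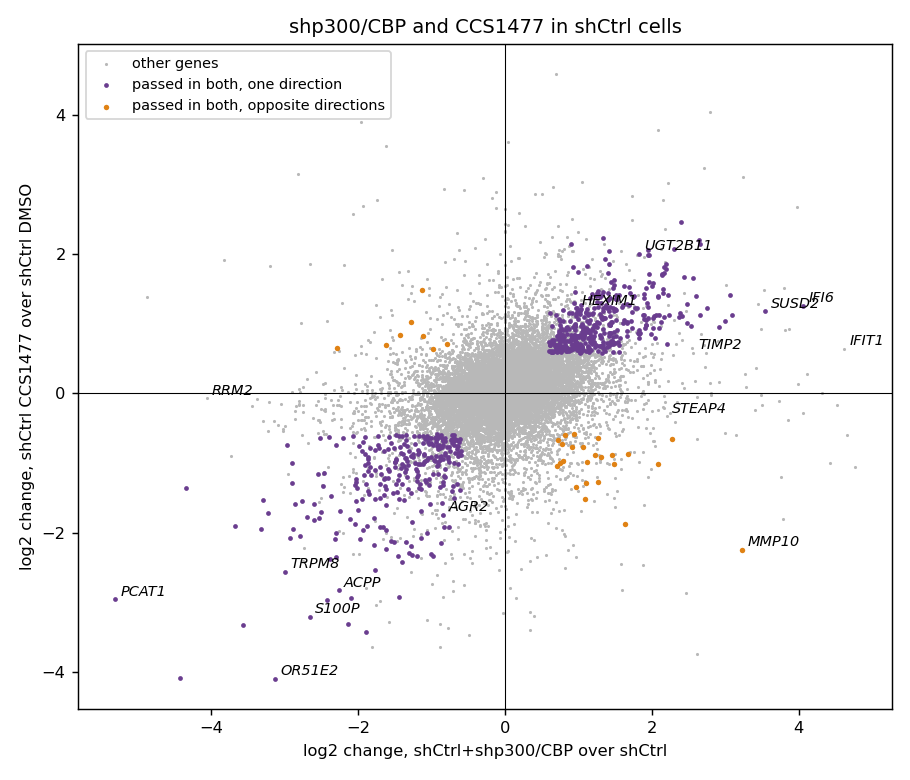
Log2 change with CCS1477 over DMSO (vertical axis) against log2 change with shp300/CBP over shCtrl (horizontal axis), both in shCtrl cells. Purple genes passed in both in one direction (403 higher, 279 lower) and orange genes in opposite directions (24 and 8). TRPM8, OR51E2 and PCAT1 lie low on both axes, and RRM2 lies near 0 on the vertical one.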

How the data were processed

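The authors aligned reads of poly(A) RNA from 28 LNCaP libraries to hg38 with STAR 2.6.0 and deposited FPKM per gene, 26475 genes a library (32 with no value). Whether counting used strand is not given in the sources used here, so overlapping antisense genes cannot be told apart. The study tested counts pairwise. Here limma 3.58.1 in R 4.3.3 was fitted to log2(FPKM + 0.1) of the 16 knockdown libraries (8 groups, 17678 genes with at least 0.1 FPKM in 2 libraries) and separately to the 12 CCS1477 libraries (15907 genes, at least 0.1 FPKM in 3), with limma's trend option and p-values adjusted over all genes by the Benjamini-Hochberg method. Scripts were tested on simulated data. Called genes passed an adjusted p of 0.05 and 1.5-fold; list counts used the adjusted p alone. Genes named were EP300, CREBBP, HOXB13, the 14 largest separated changes each way at 1 FPKM or more, up to 4 members per list by p and the 8 largest of each other comparison. This rule gave 244 genes, of which only some are described, mainly those whose calls did not rest on 1 library; other list members are named to show a list's content. Members and lists were chosen with earlier results of these data known. Alternatives were another pseudocount, filters, median-of-ratios scaling, fewer groups, each library left out, a replicate block and, chosen after seeing the data, voom on whole reads recovered from FPKM (18163 of 18164 genes gave whole reads within 0.05). The TTTGAA motif was also added after seeing the data. Replicates were biological duplicates or triplicates. Inferred depth ranged from 7458934 to 16338528 mapped reads.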

Additional observations from a re-analysis of the deposited data

Results flagged for a closer look

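By the interaction term in limma, the response to shp300/CBP differed between shCtrl and shHOXB13 cells. It was more positive in shCtrl cells for 988 genes (5.59%) and more negative for 448 (2.53%). It differed for 54 of 114 genes examined one by one, against 8.12% of all genes. Those 114 were picked in part for large changes in the shCtrl comparison or in the interaction itself, so a high count was built in. Without shHOXB13+shp300/CBP replicate 1, a library that stood apart from the others, the counts were 856 and 273, and 24 of the 114 genes were more positive and 18 more negative. Values are the log2 change in shCtrl cells minus that in shHOXB13 cells. Among cell-cycle genes they were -2.13 for TK1, -3.92 for RRM2, -3.33 for MYBL2, -2.91 for CDC6, -3.51 for CDC45, -2.89 for DTL, -2.66 for TOP2A, -2.74 for NDC80, -4.87 for UBE2C, -2.87 for CEP55 and -2.65 for ZNF367. In shHOXB13 cells without the p300 and CBP hairpins RRM2 was at 0.163 and 0.0918 FPKM and NDC80 at 0.184 and 0.242 FPKM. The interferon-stimulated genes IFIT1, RSAD2, IFI6 and CXCL10 differed by 2.44, 2.22, 2.41 and 2.77. Across the list of 42 the interaction was not one-sided in size, with a median of -0.05. Of the 42, 4 were more positive and 0 more negative at an adjusted p under 0.05 (5.59% and 2.54% of all genes). Fewer were more positive when either shHOXB13+shp300/CBP library was left out, and without replicate 2 some were more negative. IFI6 was at 340 and 361 FPKM in shHOXB13+shp300/CBP, against 141 and 89.5 FPKM in shHOXB13.

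Androgen-responsive and surface genes were more positive in shCtrl cells for STEAP4 (5.35), KLK3 (1.11), STEAP1 (1.11) and AGR2 (2.78) and more negative for ACPP (-1.46). Other prostate and secreted transcripts were more negative: PCAT1 (-2.90), OR51E2 (-3.21), PLA2G2A (-2.63), KRT20 (-4.39), GRIN3A (-2.70), IL1RN (-3.43), ELF3 (-1.23) and PPP1R14C (-2.59). Several matrix and adhesion genes were more positive, at 1.95 for TIMP2, 4.12 for MMP10, 2.97 for LUM, 0.66 for LAMB2, 0.93 for ITGA3, 2.33 for SUSD2 and 4.18 for SCRG1, as were RET (2.10) and TGFBR2 (2.41). Of 19 matrix metalloproteinases and inhibitors, 3 were more positive and 2 more negative (5.59% and 2.54% of all genes). Among 24 integrins and laminins, 7 were more positive and 0 more negative. Of the glucuronosyltransferases, UGT2B28 differed by 3.62, UGT2B11 by 2.30, UGT2B17 by 1.95 and UGT1A1 by 1.83.

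Lipid and lysosomal genes were more positive in shCtrl cells: TM7SF2 (1.17), MSMO1 (1.98), ELOVL6 (1.72), ACSL6 (2.03), ACSL3 (2.77), SMPD1 (2.01), GLB1 (1.05) and CTSB (0.81). ACSL3 was at 76.5 and 73.8 FPKM in shHOXB13+shp300/CBP, against 290 and 273 FPKM in shHOXB13, the opposite direction to shCtrl cells. The polyamine enzyme AMD1 was more positive (0.81), and FBL (-0.74), NR1H2 (-1.17), the amino acid transporter SLC7A5 (-1.67) and NRARP (-1.59) were more negative. These counts and calls depend on single libraries of both backgrounds, and what sets the difference between the backgrounds was not tested.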

How the results depend on the processing

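The number of libraries, 2 in a group, limits every count. With the spread from the compared groups alone, shp300/CBP against shCtrl gave 818 higher and 876 lower genes, both contrasts against a single hairpin gave 0 and 0, and the more negative interactions numbered 243. Leaving out 1 of the libraries compared gave 635 to 848 higher and 606 to 911 lower for shp300/CBP, 87 to 163 and 88 to 153 over shp300, 113 to 344 and 118 to 179 over shCBP, and 345 to 1157 more positive and 149 to 1231 more negative interactions. Without shHOXB13+shp300/CBP replicate 1, a library outside the comparisons in shCtrl cells that adds to the shared spread (chosen after seeing the data), shp300/CBP gave 1505 higher and 1585 lower, 682 and 613 over shp300, and 896 and 515 over shCBP. Voom gave 701 lower over shp300, 1178 higher over shCBP and 676 more negative interactions. Median-of-ratios scaling gave 387 higher and 607 lower over shCBP and 711 more negative interactions. A pseudocount of 1 gave 570 higher and 584 lower with CCS1477. Replicate numbers did not pair the libraries: deviations of same-numbered libraries correlated at 0.014 between shCtrl+shp300/CBP and shCtrl and at -0.058 to 0.118 over all pairs of groups. With the replicate number as a block, shp300/CBP gave 1284 higher and 1327 lower, 445 and 383 over shp300, 553 and 366 over shCBP, 823 and 367 interactions, and 1052 and 864 with CCS1477. The 114 genes examined one by one were mainly those whose calls did not rest on 1 library. That choice partly fixed their results under the alternatives in advance, so these do not describe all called genes. Of these 114 genes, none changed direction under any alternative. The adjusted p of 17 no longer passed with the compared groups alone, of 2 with the block (CREBBP and CD8A), and of 2 with median-of-ratios scaling, and 22 of 570 fits with a library left out lost the call. Other counts of all called genes were within 1.5 times. Counts in the 56 gene lists moved more: in at least one direction by over 1.5 times in 42 lists with the compared groups alone, 30 with voom, 12 with median-of-ratios scaling, 8 with a pseudocount of 1, 7 with the 1 FPKM filter, 6 with the block and 5 with no filter. With the compared groups alone the lower counts were 16 for DNA replication, 7 for ribosome biogenesis, 4 for p53 targets, 4 for luminal markers, 3 for nuclear receptors and 2 for sterol sensing, and 2 sensors were higher. With voom they were 25 for ribosome biogenesis and 13 for NRF2, and 5 class I antigen presentation genes and 5 androgen-responsive genes were higher. Lower ribosomal protein genes numbered 1 with the compared groups alone, 26 with voom, 20 with the 1 FPKM filter, 7 with no filter and 7 with the replicate block. The causes were not tested.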

Other observations

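Growth factor genes held both directions. ERBB3, a neuregulin receptor, was at 18.7 and 17.2 FPKM in shCtrl+shp300/CBP, against 29.1 and 30.5 FPKM in shCtrl (log2 change -0.73 ± 0.10, limma adjusted p = 0.00068). IGFBP6, an IGF-binding protein, was at 0.569 and 0.697 FPKM in shCtrl+shp300/CBP and was listed at 0 in both shCtrl libraries. CRABP1, a retinoic acid carrier, was at 0.813 and 1.27 FPKM in shCtrl+shp300/CBP, and both shCtrl libraries listed it at 0. Its call (limma adjusted p = 0.011) was lost without shCtrl+shp300/CBP replicate 2 and without either shCtrl library (adjusted p 0.0573 to 0.0878).

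Transport and matrix enzymes gave further values. SLC7A5, a transporter of large amino acids, was at 1.17 and 1.31 FPKM in shCtrl+shp300/CBP, against 3.28 and 3.86 FPKM in shCtrl (log2 change -1.45, limma adjusted p = 0.0050). MMP11, the metalloproteinase stromelysin 3, was at 3.82 and 3.82 FPKM with shp300/CBP, against 1.28 and 1.27 FPKM in shCtrl (2.85-fold, limma adjusted p = 0.00047). LAMA5, a laminin chain, was at 30.8 and 32.8 FPKM with shp300/CBP, against 13.8 and 16.7 FPKM in shCtrl. Of 15 immune markers, 9 were tested and CD8A alone passed. It was at 0.235 and 0.533 FPKM with shp300/CBP, against 0.0592 and 0.1 FPKM in shCtrl (adjusted p = 0.041 in limma). The CD8A call was lost with the replicate block and without 3 of the 4 libraries.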
